A study of Homo sapiens with 6 samples.

Results

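The S100 calcium-binding protein genes were examined in SKOV3 cells, a human ovarian cancer cell line, after silencing of the transcription factor KLF5. The members were 10 genes taken by symbol from the 29185 genes of the deposited table, namely S100A2, S100A3, S100A4, S100A6, S100A10, S100A11, S100A13, S100A14, S100A16 and S100P. Poly(A) RNA was sequenced from 3 libraries of KLF5 knockdown cells (sh-KLF5) and 3 libraries of control cells with the genotype WT in the labels (sh-NC in the study). The knockdown sequence was carried by a lentiviral pLKO.1-EGFP-Puro vector in stable lines selected with puromycin, and whether a line was a single clone is not given in the sources used here. Nothing in the labels says that the libraries came from separate cultures, so p-values measure the spread between these libraries, which may be technical. In such bulk RNA, fewer cells of a type and less RNA per cell cannot be told apart.

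S100 proteins are small proteins with paired EF-hands, the helix-loop-helix fold that holds a calcium ion. Most form dimers, open a hydrophobic face when calcium binds, and then dock onto short stretches of partner proteins such as annexins, non-muscle myosin or cytoskeletal linkers. S100A10 no longer binds calcium and stays in its open form, bound to annexin A2. Some members are also released from cells and act on receptors such as RAGE (AGER) and TLR4. Several, S100A4 and S100P among them, are known from studies of invasion and spread of carcinomas.

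Of the 10 members, 3 fell, 1 rose, 5 did not pass the test and 1 was too low to be tested. The genes that fell were S100P, S100A4 and S100A10, and the gene that rose was S100A11. A gene passed when the Benjamini-Hochberg adjusted p of limma, a linear model fitted to all tested genes on log2(normalized count + 1), was under 0.05, and it was called when its log2 fold change was also above 1 or below -1. In either direction, 4 of 9 tested members passed, beside 12.9% of all tested genes. All 3 falls were calls, that is 3 of 9 tested members, where 3.37% of the 15803 tested genes were called lower and 6.85% passed as lower. The single rise among the 9 tested members stands beside 6.04% of all tested genes that passed as higher and 1.9% that were called higher. The libraries of the groups did not overlap for 5 of the 9 tested members, against 31.3% of all tested genes. The median log2 fold change was -0.35 over the 9 tested members and -0.002 over all tested genes. The members were chosen with earlier results of these data known. The shares and medians are thus a description and no test of the S100 family.

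**Figure D1:**
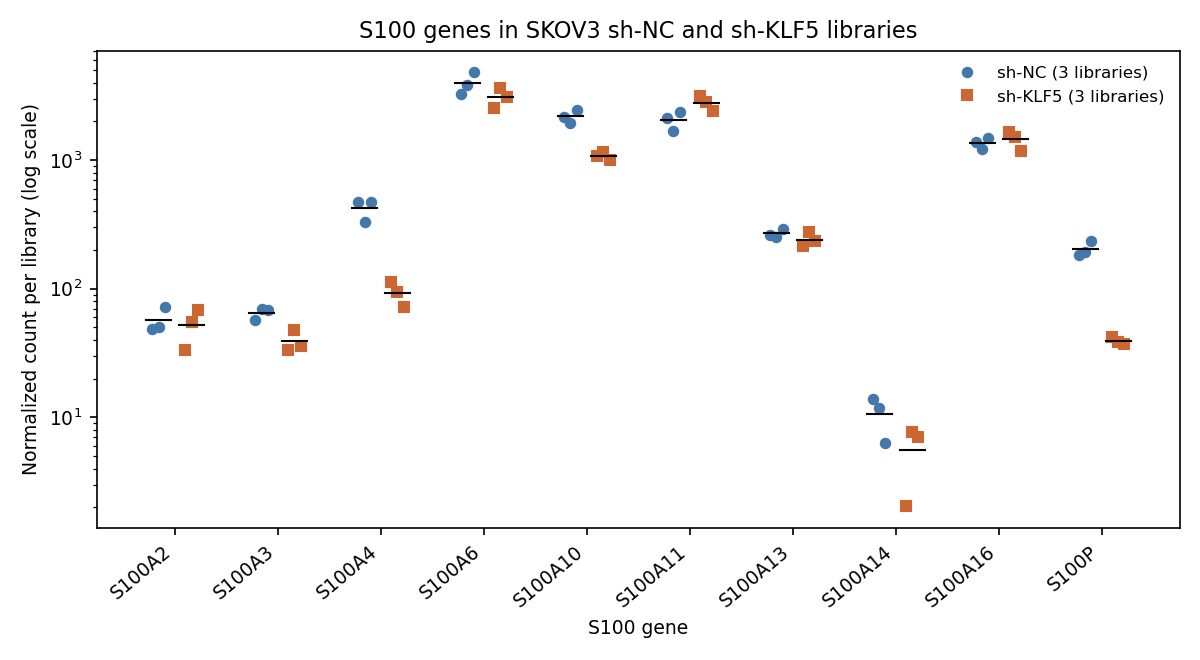
Normalized count per library (log scale) of the 10 S100 genes, with 3 sh-NC libraries (circles), 3 sh-KLF5 libraries (squares) and a line at each group mean. S100P, S100A4, S100A10 and S100A3 lie lower in every sh-KLF5 library than in any sh-NC library, and S100A11 lies higher in every sh-KLF5 library. Of these, S100A3 did not pass the test.

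The libraries held 15852319 to 17543896 reads on genes. KLF5 itself had normalized counts of 4371, 4425 and 4494 in sh-NC and 1745, 1439.9 and 1436 in sh-KLF5 (log2 fold change -1.53, SE 0.12, limma adjusted p = 2.47e-07). Of 7 carcinoma markers, KRT7 (log2 fold change -0.78, limma adjusted p = 0.00112), KRT8 (-1.17, 4.35e-05) and KRT18 (-0.64, 0.00343) fell, beside 6.85% of all tested genes that passed as lower. The summed normalized count of the list ranged from 53719 to 65753 among the controls and from 28374 to 38808 after silencing. Most of this sum was KRT7 and KRT8, with means of 32104 and 21816 in sh-NC. The keratin KRT19 had 2 to 17 reads per library and did not pass (log2 fold change 1.14, limma adjusted p = 0.285). EPCAM, ERBB2 and PAX8 did not pass either. Of 5 markers of other cell types in the table, 4 had at most 3 reads in every library and the endothelial marker PECAM1 had 31 to 75. The part of the keratin decrease in the S100 values was not tested.

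S100P, a gene first found in placenta whose product binds ezrin, had the largest fall of the members. The 3 sh-NC libraries held 182, 194 and 233 normalized counts of S100P, and the 3 sh-KLF5 libraries 41.8, 38.8 and 37.1. The lowest control library lay far above the highest knockdown library, and the 3 knockdown libraries were close to each other. The means were 203 ± 26.7 and 39.2 ± 2.37 (SD, n = 3 each), a level in sh-KLF5 of 19.3% of that in sh-NC (log2 fold change -2.34, SE 0.20, 95% interval -2.77 to -1.91, limma adjusted p = 8.74e-07). A larger fall was fitted for 260 of the tested genes, or 1.65%. S100P is the member outside chromosome 1, at chr4:6693069-6697170 on the plus strand (hg38).

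S100A4, which binds non-muscle myosin heavy chain and is widely used as a marker of fibroblast-like and motile cells, had the next largest fall. Normalized counts of S100A4 stood at 475, 331 and 475 in the controls and at 113, 95.1 and 72.2 after KLF5 silencing. The groups did not overlap, although sh-NC replicate 2 was lower than the other control libraries. The mean went from 427 ± 83.2 to 93.5 ± 20.5 (SD, n = 3 each), which is 21.9% of the control level (log2 fold change -2.18, SE 0.20, 95% interval -2.60 to -1.76, limma adjusted p = 1.42e-06). It lies at chr1:153543613-153550136 on the minus strand, and 281 tested genes (1.78%) had a larger fall.

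S100A10, the light chain of the complex with annexin A2 at the inner face of the plasma membrane, was the most abundant of the members that fell. The sh-NC libraries gave normalized counts of 2145, 1958 and 2449, against 1083, 1155 and 1009 in the sh-KLF5 libraries. Every knockdown library was below every control library, and the spread within the knockdown libraries was small. The means were 2184 ± 248 and 1082 ± 73 (SD, n = 3 each), a 2.01-fold decrease (log2 fold change -1.01, SE 0.12, 95% interval -1.26 to -0.75, limma adjusted p = 2.52e-05). The gene at chr1:151982915-151994390, minus strand, passed the test whichever library was left out, but its fold change lay at the threshold for a call and was -0.96 without sh-KLF5 replicate 3 and -0.92 without sh-NC replicate 3.

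S100A11, which binds annexin A1 and is known from keratinocytes and from membrane repair, was the only member that rose. Control libraries had 2109, 1686 and 2353 normalized counts of S100A11, and knockdown libraries had 3124, 2828 and 2407. The groups did not overlap, but sh-KLF5 replicate 3 lay only just above sh-NC replicate 3. The means were 2049 ± 338 and 2787 ± 360.1 (SD, n = 3 each), a 1.36-fold increase (log2 fold change 0.45, SE 0.14, 95% interval 0.15 to 0.74, limma adjusted p = 0.0431), and 11.3% of tested genes had a larger rise. The limma adjusted p was 0.0536 without sh-KLF5 replicate 1, 0.121 without sh-KLF5 replicate 2, 0.103 without sh-NC replicate 1 and 0.28 without sh-NC replicate 2. The gene, at chr1:152032506-152047907 on the minus strand, shares runs of up to 44 identical bases with the processed copies S100A11P2 and S100A11P1, so a part of its reads could have been split with these.

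The 4 members that passed held different motif matches before their start sites. The bases before the RefSeq start (GRCh38.p14) are shown for them because they are the members whose level changed with the level of a transcription factor whose family binds C-rich DNA. Each sequence reads 5′ to 3′ along the gene's own strand and ends 1 base before the start, and capitals mark matches on either strand to CCCCNCCC, a KLF-type motif, or to TATAAA, the TATA box. The windows are chr4:6693628-6693877 (plus strand) for S100P, chr1:153545807-153546056 (minus strand) for S100A4, chr1:151993860-151994109 (minus strand) for S100A10 and chr1:152037005-152037254 (minus strand) for S100A11.
S100P: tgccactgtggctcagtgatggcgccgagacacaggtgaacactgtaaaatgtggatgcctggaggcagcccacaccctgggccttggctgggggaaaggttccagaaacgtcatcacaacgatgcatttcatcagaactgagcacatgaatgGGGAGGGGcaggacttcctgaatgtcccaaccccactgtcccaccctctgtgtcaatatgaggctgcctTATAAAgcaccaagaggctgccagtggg
S100A4: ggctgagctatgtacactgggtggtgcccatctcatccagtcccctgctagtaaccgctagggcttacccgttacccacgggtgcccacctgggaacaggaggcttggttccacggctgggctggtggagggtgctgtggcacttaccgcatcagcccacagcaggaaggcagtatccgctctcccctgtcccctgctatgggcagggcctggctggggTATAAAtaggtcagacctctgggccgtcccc
S100A10: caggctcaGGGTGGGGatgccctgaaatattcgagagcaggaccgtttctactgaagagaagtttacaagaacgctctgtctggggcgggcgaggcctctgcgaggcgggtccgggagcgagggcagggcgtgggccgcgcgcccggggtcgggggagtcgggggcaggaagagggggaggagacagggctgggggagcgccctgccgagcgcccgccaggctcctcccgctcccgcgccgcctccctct
S100A11: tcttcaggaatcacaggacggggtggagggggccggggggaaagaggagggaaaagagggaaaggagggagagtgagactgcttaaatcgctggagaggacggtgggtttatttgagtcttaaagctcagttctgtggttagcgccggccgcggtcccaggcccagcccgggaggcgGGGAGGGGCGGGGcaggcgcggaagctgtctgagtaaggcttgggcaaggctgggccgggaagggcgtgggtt
S100P held 1 KLF-type match that begins 97 bases before the start and a TATAAA that begins 28 bases before it. S100A4 held a TATAAA at 31 bases before its start and no match to CCCCNCCC in this window. S100A10 held 1 KLF-type match at 242 bases before the start, and S100A11 held 2, at 73 and 68 bases, which overlap each other.

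In windows of 250 bases before and 50 after the start, searched on both strands, 7 of the 10 members had a KLF-type match in at least 1 of their start windows (9 of 14 windows), beside 37.7% of all 35116 RefSeq promoter windows of this length. Of the members that did not pass, S100A6, S100A13 and S100A16 held matches, as did S100A14, and S100A2 and S100A3 held none. The AP-1 motif TGANTCA occurred in 1 window each of S100A2 and S100A3 (7.71% of all windows), and TATAAA in windows of S100A4, S100A13 and S100P (11.5% of all windows). Members with and without the KLF-type letters were thus found both among the genes that fell and among those that did not pass. A match describes letters and is not a bound site.

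S100A3, a cysteine-rich protein of hair cuticle, came next among the tested members in the size of its decrease and did not pass. S100A3 was measured on few reads, 33 to 71 per library. It had 56.8, 70 and 67.9 normalized counts in the sh-NC libraries and 33.6, 47.5 and 36.1 in the sh-KLF5 libraries. The groups did not overlap, at a mean of 64.9 ± 7.08 against 39.1 ± 7.42 (SD, n = 3 each). The log2 fold change was -0.73 with an SE of 0.25 and a 95% interval of -1.26 to -0.19, and the limma adjusted p was 0.0729. The gene (chr1:153547329-153549372, minus strand) lies inside the span of S100A4 but shares no exonic base with it.

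The other tested members had overlapping groups. S100A6 (calcyclin), whose product binds the calcyclin-binding protein CACYBP, had normalized counts of 3238, 3813 and 4800.3 in sh-NC and 2551, 3657 and 3092 in sh-KLF5 (log2 fold change -0.35, 95% interval -0.67 to -0.02, limma adjusted p = 0.164). S100A13, which takes part in the release of FGF1 and IL1A, had 263, 254 and 292 against 216, 274 and 233 (log2 fold change -0.17, 95% interval -0.49 to 0.16, limma adjusted p = 0.533). In S100A13, 33.5% of the exonic bases overlap other genes, including S100A1 on the opposite strand, and whether reads were counted by strand is not given in the sources used here. The interval of S100A13 includes 0 and that of S100A6 ends just below it.

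S100A2, which is known from squamous epithelium and from p53 binding, was measured on few reads and spread widely. Control values were 48.4, 50.3 and 72.2 normalized counts, and knockdown values 33.6, 55.3 and 68.2 (log2 fold change -0.15, 95% interval -0.77 to 0.46, limma adjusted p = 0.788), and the fold change turned to 0.13 without sh-KLF5 replicate 1 and 0.03 without sh-NC replicate 3. S100A16, a broadly expressed member, had 1385, 1221 and 1482 against 1643, 1519 and 1187 (log2 fold change 0.08, 95% interval -0.21 to 0.37, limma adjusted p = 0.755), and the value was -0.02 without sh-KLF5 replicate 1. S100A14, an epithelial member, had 15, 12 and 6 reads in sh-NC and 2, 8 and 7 in sh-KLF5. The groups overlapped and the gene fell below the minimum for testing, and a difference in S100A14 was not detectable at this depth.

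**Figure D2:**
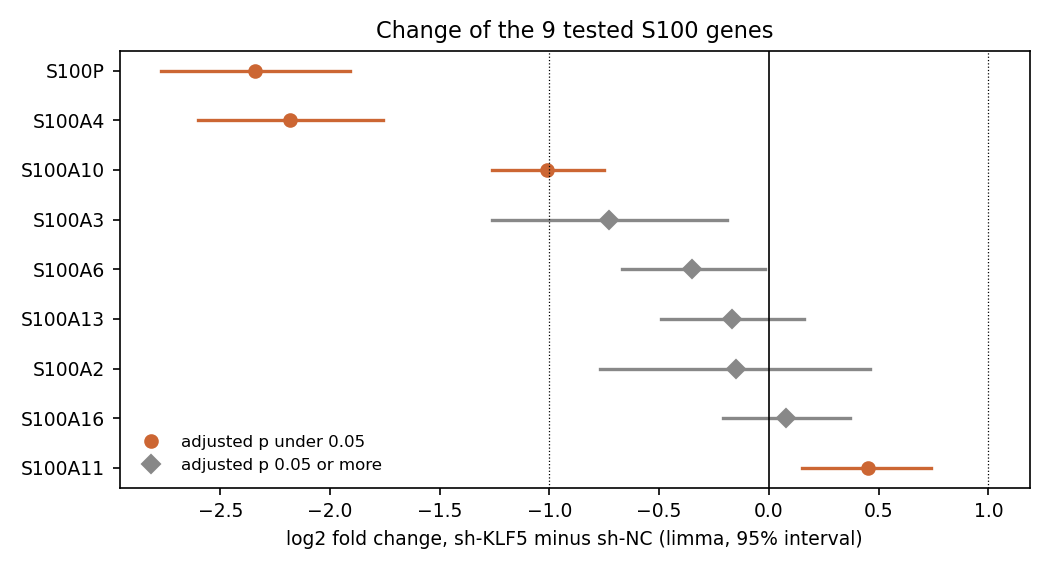
Fitted log2 fold change (sh-KLF5 minus sh-NC, limma) of the 9 tested S100 genes with 95% intervals, and dotted lines at -1 and 1. Circles mark the 4 genes with an adjusted p under 0.05, and the intervals of S100P and S100A4 lie wholly below -1 while that of S100A10 spans it.

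With 3 libraries against 3, the exact two-sided permutation test on the normalized counts of 1 gene cannot go below p = 0.1. It gave this smallest value, 0.1, for S100A3, S100A4, S100A10, S100A11 and S100P, the members whose groups did not overlap. The exact permutation p was 0.2 for S100A6, 0.3 for S100A13 and S100A14, 0.6 for S100A16 and 0.9 for S100A2.

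Levels of different genes were compared as TPM, the reads of a gene divided by its exonic length and scaled to the same total in every library. In sh-NC, S100A6 stood first at 955 ± 161 TPM (SD, n = 3), and was followed by S100A11 at 708 ± 101 and S100A10 at 333 ± 28.4. S100A16 (188 ± 14.5 TPM), S100A4 (98 ± 18.2), S100P (37.3 ± 3.69), S100A13 (28.6 ± 1.23), S100A3 (16 ± 1.63), S100A2 (8.52 ± 1.68) and S100A14 (1.99 ± 0.773) came after them. No neighbours in this order overlapped between the 3 control libraries. The members thus ranked from 65 to 15429 among the genes of the table.

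In sh-KLF5 the order of TPM levels changed. S100A11 (973 ± 155 TPM, SD, n = 3) stood above S100A6 (756 ± 141) and S100A16 (202 ± 39) above S100A10 (166 ± 16.3), but both pairs overlapped between libraries. S100A4 came to 21.7 ± 5.35 TPM, where it overlapped S100A13 (25.7 ± 3.54), and S100P to 7.26 ± 0.649, where it overlapped S100A2 (7.86 ± 2.42). S100A2 also overlapped S100A3 (9.7 ± 2.01 TPM), and S100A14 stayed last at 1.03 ± 0.572. S100P and S100A4 had stood above S100A13 in the controls, and S100P now lay below it.

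The summed TPM of the 10 members came to 2275, 2178 and 2672 in the controls and to 2217, 2392 and 1901 after silencing. These groups overlapped (exact permutation p = 0.5), while the make-up of the sum differed. S100A11 held 32.8%, 27.3% and 29.4% of the sum in the sh-NC libraries and 50%, 42% and 42.3% in the sh-KLF5 libraries, and S100A10 went from 14.7%, 13.9% and 13.5% to 7.64%, 7.56% and 7.81%. S100A4 made up 4.13 ± 0.691% of the control sum and 0.993 ± 0.186% of the knockdown sum, and S100P 1.57 ± 0.0831% and 0.336 ± 0.0262% (SD, n = 3 each). S100A6 held 40.1 ± 4.29% and 34.9 ± 5.45%. Shares of 1 sum are not independent of each other.

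**Figure D3:**
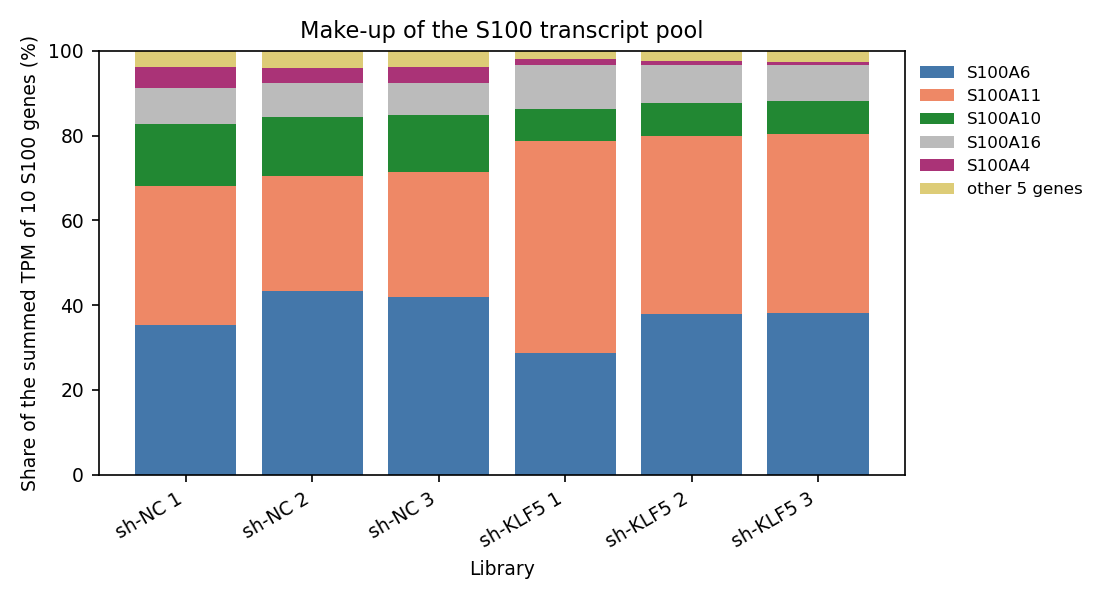
Share (%) of the summed TPM of the 10 S100 genes held by each of the 5 most abundant members and by the other 5 together, as 1 stacked bar per library. S100A11 takes 42% or more in each sh-KLF5 library and at most 32.8% in each sh-NC library, while the S100A10 band is narrower in every sh-KLF5 library.

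S100A10 and S100A11 lie next to each other, 38.1 kb apart and on the same strand, and moved in opposite directions. The ratio of S100A11 to S100A10 in TPM reached 6.54, 5.56 and 5.42 in the sh-KLF5 libraries, from 2.23, 1.95 and 2.18 in the sh-NC libraries. The mean ratio went from 2.12 ± 0.147 to 5.84 ± 0.614 (SD, n = 3 each) with no overlap, and the exact permutation p of 0.1 is the smallest this design allows. The ratio of S100A3 to S100A4, whose spans also lie together, came to 0.128, 0.227 and 0.153 in the controls and to 0.319, 0.537 and 0.537 after silencing (exact permutation p = 0.1). These ratios, and those to the annexins, were chosen after the values of the members had been seen.

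Most partner genes of the S100 proteins did not pass the test. Of 17 genes whose products bind S100 proteins or are receptors for them, 16 were tested, 2 rose (6.04% of all tested genes) and 1 fell (6.85%), with a median log2 fold change of -0.04. TLR4, a receptor of innate immunity for which released S100 proteins are known ligands, had 218, 206 and 189.9 normalized counts in sh-NC and 972, 686 and 546 in sh-KLF5. Every knockdown library was above every control library (means 205 ± 14 and 735 ± 217, SD, n = 3 each, log2 fold change 1.80, SE 0.18, limma adjusted p = 3.6e-06). AGER, the gene of the receptor RAGE, had 17 to 60 reads per library (log2 fold change -0.43, limma adjusted p = 0.483).

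ANXA2, the annexin that S100A10 binds, kept overlapping groups while S100A10 fell. ANXA2 had 14366, 13658 and 16108 normalized counts in the controls, against 12956, 14131 and 15156 after silencing (log2 fold change -0.06, SE 0.12, 95% interval -0.31 to 0.19, limma adjusted p = 0.785). In TPM, S100A10 stood at 0.848 ± 0.0254 of ANXA2 in sh-NC and at 0.442 ± 0.0535 in sh-KLF5 (SD, n = 3 each, exact permutation p = 0.1). AHNAK, the giant scaffold that docks on the S100A10 and annexin A2 complex, had a log2 fold change of -0.31 (SE 0.12, limma adjusted p = 0.118), with every knockdown library below every control library.

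ANXA1, the partner of S100A11, rose as S100A11 did. Control libraries gave 1869.6, 1888 and 1741 normalized counts of ANXA1 and knockdown libraries 3031, 2153 and 2635, with no overlap (log2 fold change 0.49, SE 0.13, limma adjusted p = 0.0176). The limma adjusted p of ANXA1 was 0.0617 without sh-NC replicate 1, 0.0679 without sh-NC replicate 2 and 0.0935 without sh-NC replicate 3. The ratio of S100A11 to ANXA1 in TPM overlapped between the groups, at 7.54 ± 1.54 and 7.28 ± 1.38 (SD, n = 3 each, exact permutation p = 0.8).

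**Figure D4:**
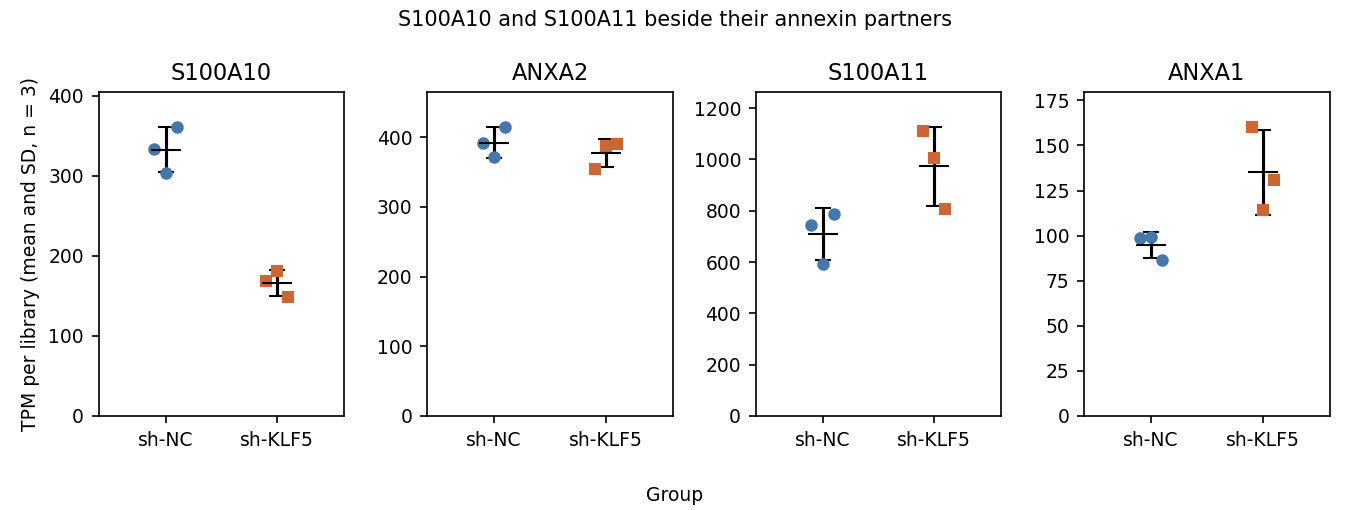
TPM per library of S100A10, ANXA2, S100A11 and ANXA1 in 3 sh-NC (circles) and 3 sh-KLF5 (squares) libraries, with the mean and SD of each group and an axis from 0 for each gene. S100A10 falls from 333 to 166 TPM on average while ANXA2 overlaps between the groups, and S100A11 and ANXA1 are both higher in sh-KLF5.

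For the other members' partners, MYH9, the myosin heavy chain bound by S100A4, had a log2 fold change of 0.14 (SE 0.21, limma adjusted p = 0.726), and CACYBP, the partner of S100A6, one of -0.11 (SE 0.11, limma adjusted p = 0.596). EZR, the gene of ezrin, which S100P binds, was the partner gene that fell, from 9938, 9864 and 10319 normalized counts in sh-NC to 6143, 7468 and 8979 in sh-KLF5 (log2 fold change -0.43, SE 0.13, limma adjusted p = 0.0421). The limma adjusted p of EZR lay between 0.0511 and 0.149 when sh-KLF5 replicate 1 or 2 or any of the sh-NC libraries was left out. S100PBP, which encodes a binding protein of S100P, had 650 to 1015 reads per library and did not pass (log2 fold change 0.15, limma adjusted p = 0.536).

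Of the annexins, the family of both partners, 10 of 11 in the table were tested, of which ANXA1 rose and 3 fell, beside 6.04% and 6.85% of all tested genes. The groups did not overlap for 8 of the 10, against 31.3% of all tested genes, and the median log2 fold change was -0.17. ANXA9, an annexin with altered calcium sites, went from 69.7 ± 3.18 to 30.4 ± 8.2 normalized counts (SD, n = 3 each, log2 fold change -1.20, SE 0.27, limma adjusted p = 0.00652). ANXA8 went from 109.8 ± 11.5 to 38.9 ± 21.4 (SD, n = 3 each, log2 fold change -1.63, SE 0.33, limma adjusted p = 0.00318), a value that is uncertain because reads may be split with its near-identical copy ANXA8L1. ANXA6 fell less (log2 fold change -0.48, limma adjusted p = 0.0243), and its adjusted p was 0.112 without sh-NC replicate 2 and 0.12 without sh-NC replicate 3.

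Among 28 tested genes of other EF-hand families, 2 rose and 1 fell, with a median log2 fold change of 0.17. These counts are close to or below the 6.04% of all tested genes that passed as higher and the 6.85% that passed as lower. HPCAL1, a neuronal calcium sensor gene, went from 745 ± 78.9 to 1398 ± 176 normalized counts (SD, n = 3 each, log2 fold change 0.90, SE 0.13, limma adjusted p = 0.000148). NCS1, of the same sensor family, went from 1242 ± 79.8 to 1808 ± 127 (SD, n = 3 each, log2 fold change 0.54, SE 0.11, limma adjusted p = 0.00389). CALB1, the gene of the calcium buffer calbindin, had 48, 45 and 50 reads in sh-NC and 3, 0 and 4 in sh-KLF5 (limma adjusted p = 0.000111). EZR, ANXA6, HPCAL1, NCS1 and INTS3 are named because they make up these small counts, and were chosen after their values had been seen.

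S100 genes that are not members were low or near the limit of detection. S100A1, the cardiac and skeletal muscle member, had 21 to 39 reads per library (log2 fold change 0.27, SE 0.34, limma adjusted p = 0.656). S100A5 had 9, 11 and 10 reads in sh-NC and 0, 4 and 10 in sh-KLF5, S100A8 and S100A9 (the subunits of calprotectin) had at most 2 and 4, and S100G had at most 3. A count of 0 allows up to 3 reads per library. S100A7, S100A7A, S100A7L2, S100A12, S100B and S100Z had no row under these symbols in the deposited table and could not be analysed.

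All members but S100P lie on chromosome 1, in the band that also holds the genes of the epidermal differentiation complex. Between 500 kb below S100A10 and 500 kb above S100A13 (chr1:151482915-154131360), 32 tested genes that are not members were compared, of which 0 rose and 2 fell by limma, at a median log2 fold change of -0.17. Their share that fell is close to the 6.85% of all tested genes that passed as lower. At an unadjusted limma p under 0.05, 0 of the 32 were higher and 5 lower. Over all 15803 tested genes, an unadjusted limma p of 0.05 stood at rank 4133, counted in both directions, so such values were common. By adjusted p, edgeR and DESeq2 also gave 0 neighbours that rose. FLG, the gene of filaggrin, a fused-type S100 protein of cornified skin, had 33, 28 and 15 reads in sh-NC and 2, 1 and 0 in sh-KLF5 (limma adjusted p = 0.000493). INTS3, a subunit of the Integrator complex, went from 1799 ± 46.5 to 1359 ± 139 normalized counts (SD, n = 3 each, log2 fold change -0.41, SE 0.12, limma adjusted p = 0.0274), and its adjusted p was 0.0525 without sh-KLF5 replicate 3, 0.0993 without sh-NC replicate 1, 0.142 without sh-NC replicate 2 and 0.0821 without sh-NC replicate 3.

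Next to S100A4, the neighbours listed here did not pass, which does not show that each changed less than S100A4. These were S100A3 within its span and S100A6, S100A2 and S100A16 around it. The antisense gene BX470102.1 shares 23 exonic bases with S100A6 on the opposite strand. It had 30, 19 and 19 reads in sh-NC and 2, 15 and 7 in sh-KLF5 (log2 fold change -1.66, SE 0.55, 95% interval -2.83 to -0.50, limma adjusted p = 0.0581). It did not pass either, and its interval includes the -2.18 of S100A4. The strand setting is not given, so reads of S100A6 and of BX470102.1 may not be fully separated. S100A5, between S100A6 and S100A4, had too few reads to be tested. With no filter on low counts, the log2 fold change of S100A5 was -1.53 (SE 0.62, limma adjusted p = 0.119). A fall of S100A5 as large as that of S100A4 is thus not excluded. Of the other fused-type genes, FLG2 and HRNR had at most 3 reads per library, and TCHH (trichohyalin) had 6 to 36 reads and did not pass (log2 fold change -0.89, limma adjusted p = 0.283). TCHHL1, RPTN and CRNN had no row under these symbols in the deposited table and could not be analysed.

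**Figure D5:**
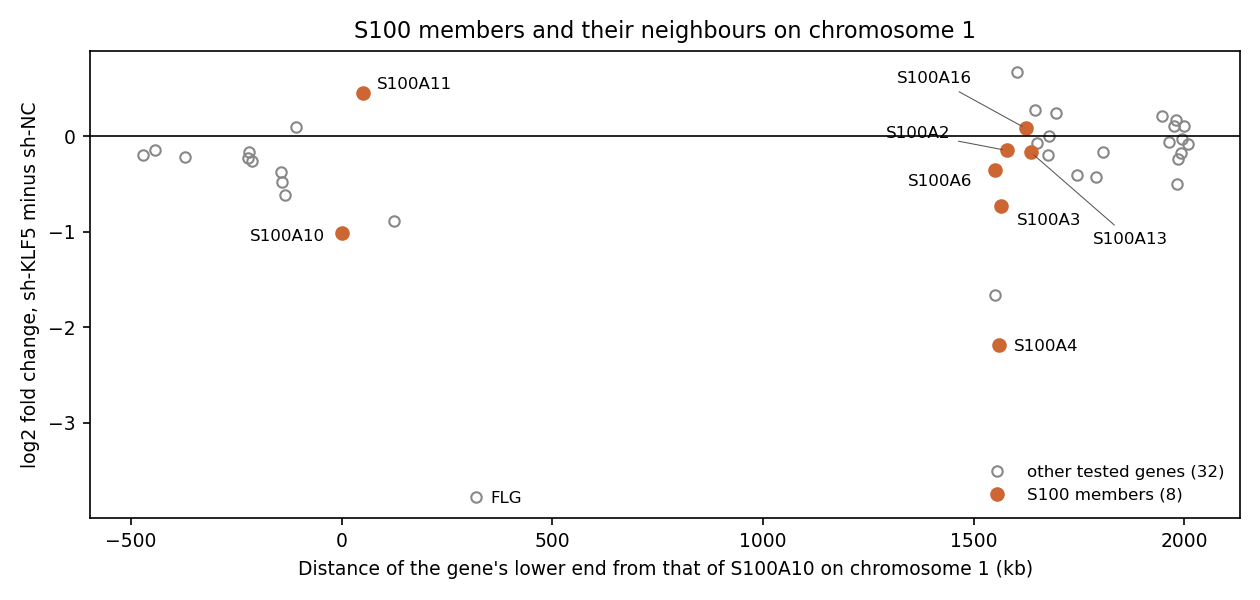
Fitted log2 fold change (sh-KLF5 minus sh-NC, limma) of 8 tested S100 members (filled) and 32 other tested genes (open) against the distance in kb from S100A10 on chromosome 1. S100A4 at -2.18 stands below the tested S100 genes around it, and S100A5, which was not tested, is not shown. S100A10 and S100A11 lie on opposite sides of 0, and the value of FLG rests on at most 2 reads per sh-KLF5 library and depends on the pseudocount.

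The genes whose library values were most like those of S100P, by the root mean square difference of log2 values over the 6 libraries, each relative to its own sh-NC mean, were TIMP3 (0.163), VEPH1 (0.171) and OAS1 (0.191) among 12805 protein-coding genes. For S100A11 they were HHEX (0.062), CAMTA1 (0.068) and TPGS1 (0.073). HHEX, CAMTA1 and TPGS1 did not pass the test themselves, at limma adjusted p-values of 0.119, 0.0532 and 0.116. The genes near S100P had log2 fold changes of -2.32, -2.19 and -2.24. Their closeness to the value of S100P follows from how they were selected and is no separate result.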

How the data were processed

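Total RNA of SKOV3 cells was enriched for poly(A) RNA and sequenced in 3 sh-NC and 3 sh-KLF5 libraries, which were grouped by their labels. The values deposited by the authors, for 29185 genes, are a signal in normalized counts (reads per gene divided by the size factor of the library), with gene lengths and coordinates beside them. The submitters' processing notes name HISAT2 2.0.5, featureCounts 1.5.0-p3, DESeq2 1.20.0 and hg38, and all genes of the table have GENCODE release 29 coordinates (100%). The same table holds the authors' log2 fold changes and p-values, unadjusted and adjusted, which were not used. Strand setting and read length are not given in the sources used here. 0 other columns of per-sample values were present.

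Whole reads were recovered from the deposited values (100% came out whole within 1e-06 reads), and totals ranged from 15852319 to 17543896. Libraries of a group differed by more than sampling noise (chi-square per degree of freedom 4.73 to 34.8). The largest values, 26.9 and 34.8, were those of sh-KLF5 replicate 1 against sh-KLF5 replicates 2 and 3. Replicates 2 and 3 of sh-KLF5 gave 11.8, and the sh-NC libraries gave 4.73 to 9.47. Genes kept by edgeR 4.0.16 filterByExpr (minimum count 10) numbered 15803. The groups were compared with limma 3.58.1 (trend, robust) in R 4.3.3 on log2(normalized count + 1), so that fold changes of low genes are understated, with Benjamini-Hochberg adjustment over all tested genes. The code was tested on simulated data. TPM was computed from the reads and the deposited lengths. Exact permutation tests used scipy 1.17.1 and figures matplotlib 3.10.9. Intervals and the limit of 3 reads for a count of 0 cover counting error or library spread only. Alternatives were edgeR and DESeq2 1.42.0 on the reads, TMM factors, library size alone, pseudocounts of 0.1 and 5, other filters, a replicate block, limma treat, and leaving out each library in turn.

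The members, the gene lists and the rules were chosen with earlier results of these data known. Named were the 10 members, KLF5, the other S100 genes, genes called in each list, the direct partners of S100A4, S100A6, S100A10 and S100A11, and the 3 genes most like the member with the largest fall and the largest rise. A planned comparison of protein sequences was not run.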

Additional observations from a re-analysis of the deposited data

How the results depend on the processing

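The falls of S100P, S100A4 and S100A10 passed in every alternative test of a difference from 0, including each library left out in turn, with log2 fold changes without 1 library of -2.41 to -2.24, -2.36 to -2.01 and -1.08 to -0.92. Without 1 library, 2 to 3 members were called lower, limma treat against a fold threshold called 2, and 0 to 1 members passed as higher. The sign turned for S100A2 (-0.37 to 0.13 without 1 library) and S100A16 (-0.02 to 0.22), where S100A2 was 0.13 without sh-KLF5 replicate 1 and 0.03 without sh-NC replicate 3, and S100A16 was -0.02 without sh-KLF5 replicate 1. Without 1 library, partner genes passing numbered 1 to 3 (higher) and 0 to 2 (lower), annexins 0 to 1 (higher), EF-hand genes 2 to 4 (higher) and neighbours 1 to 3 (lower). With no filter 2 partner genes passed as lower. With at least 10 reads in every library 0 EF-hand genes and 1 neighbour passed as lower, since CALB1 and FLG were then not tested. S100A11 lost its pass only without sh-KLF5 replicate 1 or 2 or sh-NC replicate 1 or 2, among the alternatives run. As shares of reads not divided by length, S100A11 held 19.4% of the 10 members in sh-NC and 31.4% in sh-KLF5, and S100A10 20.7% and 12.2%.

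Replicate numbers are shared between the groups, but same-numbered libraries hardly deviated together (r = 0.059, 0.0331 and 0.0504), although 6 of 6 libraries correlated best with their own number. With the replicate block, 4 members passed as lower, the added one being S100A6 (adjusted p = 0.0431 with limma), and 4 neighbours passed as lower. Depth limits S100A2, S100A3, S100A14 and the S100 genes under about 10 reads.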
